A study of Homo sapiens with 4 samples.

Results

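Within NB4 cells, the CUT&Tag peak list labelled PML/RARA held 12797 peaks that lay deep inside protein-coding genes and shared no base with any peak of the PPARα list. They were chosen by position alone: a summit on chromosomes 1 to 22, inside a protein-coding RefSeq gene, more than 5 kb from both ends of every protein-coding gene, in a peak without 1 base in common with PPARα. They made up 28.4% of the 45085 PML/RARA peaks on these chromosomes (95% Clopper-Pearson interval 28.0 to 28.8), and the 2 deposited lists held 55850 peaks in all. NB4 is a human line of acute promyelocytic leukemia that carries the PML-RARA fusion. CUT&Tag uses an antibody to bring a transposase to chromatin and sequences the DNA it cuts. The study had 4 libraries, all of NB4 cells: 1 each with antibodies labelled PPARα and PML/RARA, both marked as treatment, and 1 IgG library for each, marked as control. Each antibody had 1 peak list and no replicate, the IgG libraries were not used here, and the read depth is unknown, so every value below describes these lists and every interval covers counting error only. The labels name no agent and no dose, and no source used here says which epitope the antibody labelled PML/RARA sees, so signal from normal PML or RARA protein cannot be told apart from that of the fusion.

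PML/RARA joins the promyelocytic leukemia protein to retinoic acid receptor alpha, a nuclear receptor. Like the receptor it binds DNA with RXR at paired hexamers related to AGGTCA, and it tolerates more spacings and orientations than the receptor does, because the fusion forms larger assemblies. Without retinoic acid at pharmacological dose it recruits corepressors such as NCOR1 with histone deacetylases, and myeloid maturation stops at the promyelocyte. Gene bodies hold enhancers and secondary start sites as well as transcribed sequence, so a peak there may lie far from the promoter that gives the gene its name. The gene table gave starts and ends only, so a peak could not be assigned to an exon or an intron.

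Sequence inside these genes was at hand for annotated starts and for microRNAs. RefSeq windows on GRCh38.p14, from 250 bases before to 50 bases after an annotated start, numbered 5631 in gene interiors, 3185 of them of coding genes and 2446 of long noncoding RNA genes. Interiors are the sequence of coding genes more than 5 kb from any coding-gene end. A PML/RARA-only peak touched 540 of them (9.59%). Seen from the peaks, 470 of the 12797 (3.67%, interval 3.35 to 4.01) touched such a window, and 20.3% (18.4 to 22.3) of the 1667 interior peaks shared with PPARα did. Most of the PML/RARA-only peaks therefore had no annotated start under them in this table.

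SPECC1, a gene for a coiled-coil cytoskeletal protein, shows a peaked and an unpeaked start in 1 gene. Its window at chr17:20155822-20156121 (plus strand) lay wholly inside a peak with a fold enrichment of 33.3 and held 33 CG pairs. Another of its windows, at chr17:20086772-20087071 (plus strand), had no PML/RARA peak and held 3 CG pairs. SH2D3C, which encodes a signalling adaptor, had a window at chr9:127771245-127771544 (minus strand) inside a peak of fold 27.4, with 28 CG pairs. LOC105370034, a long noncoding RNA gene inside MORN3, had a window at chr12:121663840-121664139 (plus strand) inside a peak of fold 27.9, with 4 CG pairs. The 4 sequences are given 5′ to 3′ with every CG pair in capitals, because the number of CG pairs is the feature described next, and the last sequence shows that a strong peak could lie on few of them.
SPECC1, start inside a peak: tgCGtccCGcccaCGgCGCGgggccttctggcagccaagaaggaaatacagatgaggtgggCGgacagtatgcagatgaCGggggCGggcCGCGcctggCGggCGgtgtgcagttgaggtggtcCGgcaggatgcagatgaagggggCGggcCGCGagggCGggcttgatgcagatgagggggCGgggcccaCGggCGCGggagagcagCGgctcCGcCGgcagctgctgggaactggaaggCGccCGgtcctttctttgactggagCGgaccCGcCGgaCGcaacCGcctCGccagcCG
SPECC1, start without a peak: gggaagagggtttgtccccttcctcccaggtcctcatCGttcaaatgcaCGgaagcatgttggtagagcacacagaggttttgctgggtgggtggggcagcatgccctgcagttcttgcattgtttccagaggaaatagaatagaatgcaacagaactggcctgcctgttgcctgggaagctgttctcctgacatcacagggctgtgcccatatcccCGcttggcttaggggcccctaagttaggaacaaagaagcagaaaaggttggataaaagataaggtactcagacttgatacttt
SH2D3C, start inside a peak: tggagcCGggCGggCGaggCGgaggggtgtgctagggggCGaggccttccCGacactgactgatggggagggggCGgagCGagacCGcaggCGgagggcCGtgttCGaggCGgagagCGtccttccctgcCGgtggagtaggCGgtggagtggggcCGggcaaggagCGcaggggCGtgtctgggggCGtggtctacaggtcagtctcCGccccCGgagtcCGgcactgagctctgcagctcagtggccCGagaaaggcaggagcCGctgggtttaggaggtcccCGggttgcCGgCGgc
LOC105370034, start inside a peak: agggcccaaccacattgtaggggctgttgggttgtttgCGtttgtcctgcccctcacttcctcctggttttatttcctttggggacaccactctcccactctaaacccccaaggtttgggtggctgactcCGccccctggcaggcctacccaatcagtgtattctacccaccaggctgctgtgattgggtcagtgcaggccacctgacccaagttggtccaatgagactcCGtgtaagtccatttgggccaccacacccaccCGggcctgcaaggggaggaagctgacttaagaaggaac

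The windows that touched only PML/RARA-only peaks had a median GC content of 64.3% and a median of 18 CG pairs. Windows in peaks shared with PPARα had medians of 66.3% and 28 CG pairs. The 4633 interior windows without a PML/RARA peak had medians of 48.3% and 4. The share of windows touched by a PML/RARA-only peak was 3.67% (3.01 to 4.42) with up to 5 CG pairs, 10.6% (9.01 to 12.3) with 6 to 15, 15.2% (12.7 to 17.9) with 16 to 30 and 28.3% (24.8 to 32.1) with 31 or more. Peaks shared with PPARα climbed faster in the same bins, from 1.07% and 3.70% to 25.6% and 29.0%. In both bins up to 15 CG pairs, PML/RARA-only peaks were thus the more frequent kind, and from 16 to 30 the shared peaks were. With 31 or more the intervals overlapped (24.8 to 32.1 for PML/RARA-only and 25.4 to 32.7 for shared peaks). A CG-rich start was not always under a peak: the SH2D3C window at chr9:127755255-127755554 held 28 CG pairs, as many as the peaked one, and had no PML/RARA peak.

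The binding elements of retinoic acid receptors were searched as plain letters on both strands. The hexamer AGGTCA was present in 11.5% (8.93 to 14.5) of the 539 windows that touched only a PML/RARA-only peak, 9.31% of the 451 in shared peaks, 17.2% (16.2 to 18.4) of those without a PML/RARA peak and 13.8% of all 34943 promoter windows in the table. The classical element of the receptor with RXR is a direct repeat of the hexamer with 5 bases between the copies. Searched as GGTCA, any 6 bases and GGTCA, which leaves the first base of each hexamer free, it was in none of the 539 windows with a PML/RARA-only peak (interval up to 0.682%) and none of the 451 with a shared peak. It was in 4 of the 4633 windows without a peak and in 0.0544% of all promoter windows. With an element this rare, its absence from sets of this size does not tell the sets apart. Repeats with 0, 1 and 2 bases between the hexamers (GGTCA, any 1, 2 or 3 bases, GGTCA) were likewise in no window with a peak of either kind. The repeat with 4 bases between the hexamers was present in 2 windows with a PML/RARA-only peak, 1 with a shared peak and 5 without a peak, against 0.0859% of all promoter windows. Of the letters of other factors, the ETS core GAGGAAG was in 18.6% (15.4 to 22.1) of windows with a PML/RARA-only peak, 19.5% with a shared peak and 12.8% (11.9 to 13.8) without. The RUNX core TGTGGT was in 15.96%, 11.3% and 16.4%, the AP-1 core TGANTCA in 11.1%, 6.43% and 11.2%, the C/EBP letters TTGCNNAA in 10.02%, 7.76% and 13.3%, and the GATA core AGATAA in 6.68%, 4.66% and 16.1%. GC content differed between these sets as given above, and its part in these shares was not tested.

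Both windows with the 4-base-spaced repeat and a PML/RARA-only peak belonged to PGAP2, a gene of glycosylphosphatidylinositol anchor maturation, and overlapped so that they held the same element. The element lay at chr11:3807884-3807898, inside a peak with fold 10.8. The window at chr11:3807760-3808059 (plus strand) is given with the 15-base element in capitals, as the direct repeat found under a PML/RARA-only peak among the spacings searched.
PGAP2, start with a direct repeat: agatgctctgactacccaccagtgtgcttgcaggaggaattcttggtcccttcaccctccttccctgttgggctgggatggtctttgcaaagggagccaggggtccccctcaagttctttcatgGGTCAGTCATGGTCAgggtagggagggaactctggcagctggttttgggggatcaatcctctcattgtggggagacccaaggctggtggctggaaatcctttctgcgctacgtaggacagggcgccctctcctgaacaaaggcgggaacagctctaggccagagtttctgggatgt

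MicroRNA genes also lay under these peaks. Of 606 RefSeq hairpins in gene interiors, 16 touched a PML/RARA-only peak and 7 lay wholly inside one. MIR6090 lay in ETS1, which encodes a blood transcription factor, under a peak of fold 24.3, and MIR3154 lay in DNM1, a dynamin gene, under a peak of fold 18.4. MIR4706 lay in MAX, the partner of MYC, and also in the overlapping genes FNTB and CHURC1-FNTB, under a peak of fold 14.7. MIR140 lay in WWP2, a ubiquitin ligase gene, under a peak of fold 11.8. Their mature sequences are given with the seed, bases 2 to 8, in capitals. The 10 mature products of the 7 hairpins shared no seed.
hsa-miR-6090: gGGGAGCGaggggcggggc
hsa-miR-3154: cAGAAGGGgaguugggagcaga
hsa-miR-4706: aGCGGGGAggaagugggcgcugcuu
hsa-miR-140-5p: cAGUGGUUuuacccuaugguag
hsa-miR-140-3p: uACCACAGgguagaaccacgg

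As peaks, the members were narrow and low. Fold, q-value and width are the authors' values for each peak and serve only to describe peaks of this list. The median fold of the PML/RARA-only interior peaks was 6.12, with quartiles of 4.50 and 9.17 and a range from 1.83 to 36.8. The median −log10 q was 7.43, from 1.30 to 783, and the median width 191 bases, from 103 to 1654. The 1667 interior peaks shared with PPARα had a median fold of 13.0, a median −log10 q of 35.1 and a median width of 409 bases. PML/RARA-only peaks elsewhere were nearer to the interior ones: the median fold was 5.78 at 1 to 5 kb from an end, 6.48 outside coding genes and 7.77 within 1 kb of an end. A higher fold within a class went with a greater chance of a PPARα partner. When all interior PML/RARA peaks were put into 5 equal groups by fold, 2.40% of the lowest group shared a base with PPARα and 33.1% of the highest, which had folds of 11.5 or more. In that highest group 1935 peaks remained without PPARα overlap, so the set was not made of faint peaks alone.

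**Figure D1:**
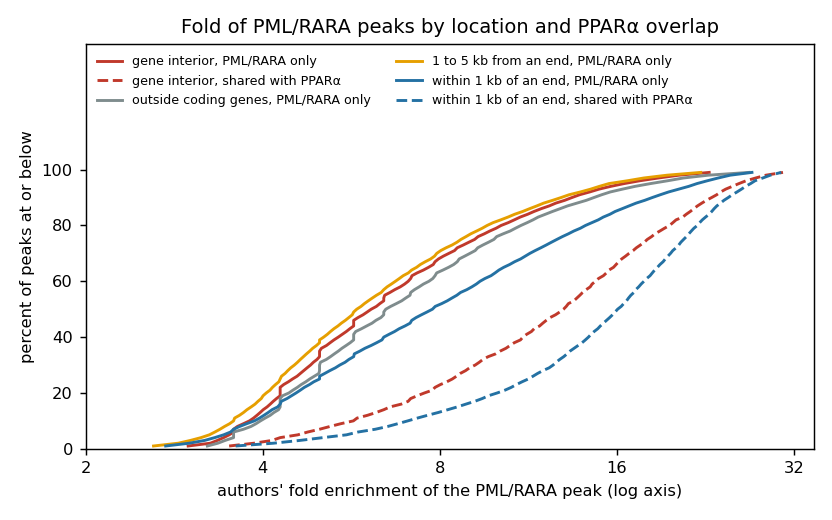
Cumulative share of PML/RARA peaks (percent, y axis) by the authors' fold enrichment (log x axis), in lines by location and by overlap with PPARα. The line of PML/RARA-only interior peaks, with a median of 6.12, lies beside the PML/RARA-only lines outside genes and 1 to 5 kb from ends, and well left of the dashed line of shared interior peaks, with a median of 13.0.

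Annotated starts followed fold in both kinds of interior peak. From the lowest to the highest of the 5 fold groups, the share touching a start window was 1.44%, 2.67%, 2.94%, 4.99% and 7.70% for PML/RARA-only peaks. For shared peaks it was 4.29%, 11.2%, 8.09%, 14.7% and 26.8%. In each group the share was thus higher with PPARα, although in the lowest group the intervals met (1.04 to 1.95 against 0.893 to 12.02, over 70 shared peaks). Peak width rose with fold as well, and shared peaks were wider, with medians of 324 and 498 bases in the highest group, and the part of width was not tested.

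The peaks just inside and just outside each limit of the rule had much the same folds for distance and different ones for overlap. The 73 peaks in the first 100 bases beyond the 5-kb distance had a median fold of 6.01, and the 58 in the last 100 bases before it had 5.997. The 62 members within 100 bases of a PPARα peak had a median fold of 6.09, and the 265 interior peaks that shared 1 to 100 bases with one had 7.85. A PPARα peak lay within 1 kb of 2.204% of members, and the median gap to the nearest was 37.9 kb, with overlapping peaks already left out by the rule.

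By gene, 4830 of the 13631 coding genes with interior sequence held at least 1 PML/RARA-only interior peak (35.4%), and 158 held at least 10 (1.16%). Exactly 1 was found in 2221 genes, 2 to 4 in 1912 and 5 to 9 in 539. The 158 genes with at least 10 held 2303 peaks, 18.0% of all. Over 1040 Mb of interior sequence the density was 1.23 peaks per 100 kb (exact Poisson interval 1.21 to 1.25). The count per gene rose weakly with interior length (Spearman correlation 0.31 across 13631 genes). Among the genes with a peak the density fell with it (Spearman correlation -0.79 across 4830 genes, which share the length in both measures). Leaving out genes without a peak sets a floor of 1 peak per gene, so short genes had high densities by construction, and nothing is concluded from this correlation. Densities that include genes without a peak are given by length further below. The named genes with the most peaks and those with the highest density were different genes, as the plot of count against length shows.

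**Figure D2:**
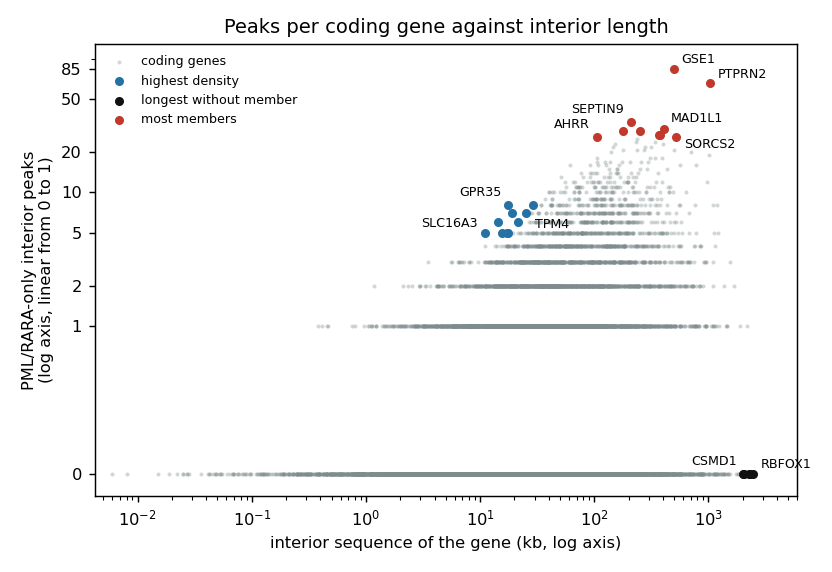
PML/RARA-only interior peaks per coding gene (y axis, logarithmic above 1 and linear from 0 to 1) against the gene's interior sequence in kb (log x axis), each point 1 gene. The 10 genes with the most peaks (red) lie above 100 kb of interior with 26 to 85 peaks, the 10 with the highest density (blue) lie under 30 kb with 5 to 8, and the 5 longest genes without a peak (black) lie at the right edge.

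GSE1, which encodes a subunit of histone deacetylase corepressor complexes, held the most: 85 PML/RARA-only peaks in 497 kb of interior on chr16:85169512-85676200, or 17.1 per 100 kb. Their folds ran from 1.94 to 27.2 with a median of 4.85, below the median of all members. GSE1 also had 4 interior peaks shared with PPARα and no peak of either antibody within 1 kb of its ends. Its peaks covered the gene from 7.28 kb to 499 kb after the 5′ end, and 27 of them followed each other at gaps of no more than 10 kb over 99.5 kb. PTPRN2, a phosphatase-like receptor of secretory vesicles, held 66 over 1039 kb, at 6.35 per 100 kb, with 7 shared peaks. SEPTIN9, a cytoskeletal GTPase gene, held 34 at 16.3 per 100 kb. MAD1L1, of the spindle checkpoint, held 30. GNG7, a G protein subunit, and PREX1, a Rac activator of neutrophils, held 29 each. CDH23, a cadherin, and IQSEC1, an exchange factor for ARF proteins, held 27 each, and SORCS2, a sorting receptor, held 26. AHRR, the repressor of the aryl hydrocarbon receptor, held 26 in only 107 kb, at 24.4 per 100 kb, and its median fold of 3.72 was the lowest of these 10 genes. Its longest run was 22 peaks over 67.5 kb. The counts leaned on peaks of low fold in several genes. With a fold of at least 5, GSE1 held 41 and PTPRN2 43, SEPTIN9 19, SORCS2 11, MAD1L1 and CDH23 10 each and AHRR 6. With a −log10 q of at least 5, GSE1 held 66, PTPRN2 41, SEPTIN9 26, AHRR 20, MAD1L1 14, CDH23 13 and SORCS2 11. Most of the AHRR peaks thus passed the cut by q and not the cut by fold. In a PML/RARA list shortened to the length of the PPARα list, GSE1 held 17 and the other 9 genes 1 to 7. Of the 10 genes, 5 lay within 5 Mb of the outermost annotated gene of their chromosome, as did 11.5% of all genes with interior. A PML/RARA end peak was found in 6, near the 62.2% of all genes with interior, and a PPARα end peak in 1, MAD1L1, against 36%.

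**Figure D3:**
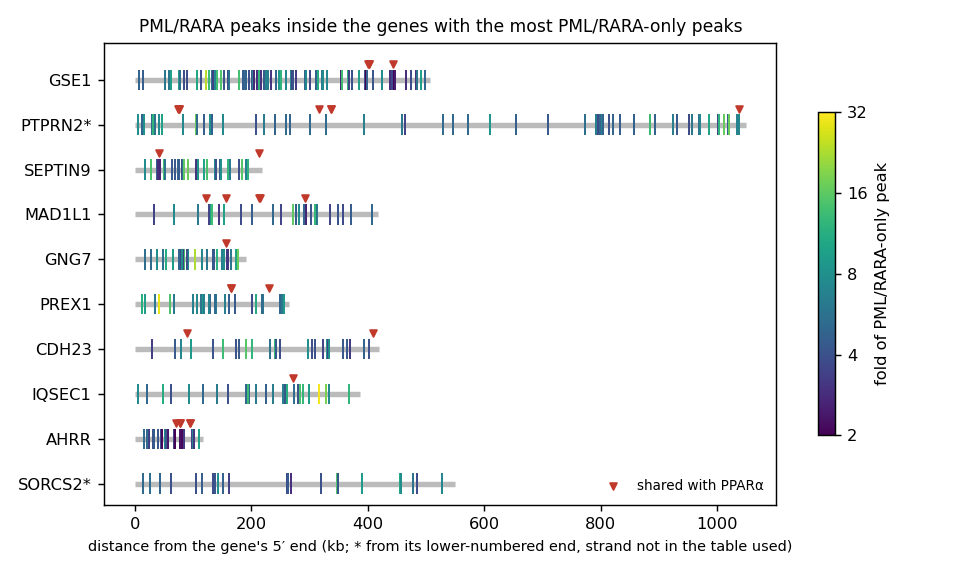
Position of each PML/RARA interior peak (x axis, kb from the gene's 5′ end, or from its lower-numbered end where a star marks an unknown strand) in the 10 genes with the most members, with PML/RARA-only peaks as ticks coloured by fold (log scale), peaks shared with PPARα as red triangles and the gene as a grey bar. The peaks of GSE1 and PTPRN2 are spread over the whole gene, 22 of those of AHRR crowd into a stretch of 67.5 kb, and the triangles are few, with 4 in GSE1 and 7 in PTPRN2.

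The densest genes with at least 5 peaks were short. GPR35, a G protein-coupled receptor gene, held 8 PML/RARA-only peaks in 17.7 kb of interior, and SLC16A3, the lactate exporter, held 5 in 11.1 kb, each at 45.1 per 100 kb. HSH2D, an adaptor of blood cells, held 6 at 41.8 per 100 kb, and these had a median fold of 7.29 and a highest −log10 q of 228. OGFOD3 held 7 (36.6 per 100 kb) and ODAD1, of ciliary dynein docking, held 5 (32.2). HCN2, a pacemaker channel, PNPLA6, a phospholipase, SSBP4, TPM4, a tropomyosin, and CSPG4, a surface proteoglycan, held 5 to 8 at 27.5 to 28.9 per 100 kb. Of these 10 genes 6 lay on chromosome 19, which held 6.76% of genes with interior, 8 had a PML/RARA end peak, 1 (ODAD1) a PPARα end peak, and 9 had no shared interior peak, SSBP4 being the exception with 2.

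At the other limit, 64 genes had more than 1 Mb of interior, and 24 of them held 139 PML/RARA-only peaks. PTPRN2, at 1039 kb just above that length, held 66 of the 139. RBFOX1, a splicing factor of neurons with 2464 kb of interior, had none. CNTNAP2, PTPRD, CSMD1 and MACROD2, with 2028 to 2294 kb each, had none either, and none of these 5 genes had a shared interior peak or an end peak of either antibody.

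The individual peaks with the highest −log10 q were wide and had folds far above the median of 6.12. The first lay in WNT9A, a Wnt ligand gene, at chr1:227934725-227935362, with −log10 q 783 and fold 26.9. SULF2, an extracellular sulfatase, had a peak at chr20:47727497-47727997 (595, fold 33.6). The peak in CXXC5, a retinoid-inducible zinc finger gene of myeloid cells, lay at chr5:139663981-139664820 (592, fold 14.2). SH3BP2, a signalling adaptor (482, fold 22.1), RFX2, a transcription factor (436, fold 25.2), and CHST15, a sulfotransferase (434, fold 31.4), followed. ASB2, a ubiquitin ligase subunit known as a retinoic acid target of promyelocytic cells, had a peak at chr14:93959370-93960032 (376, fold 17.6). VAV1, a signalling protein of blood cells, had one at chr19:6802396-6802744 (352, fold 22.4), only 110 bases from a PPARα peak. NACC2 (350, fold 15.2) and THAP4 (349, fold 22.2) completed the 10. CHST15 held no other PML/RARA-only peak and no shared one, whereas RFX2 held 12 and NACC2 11, so strong single peaks lay in sparse and crowded genes alike.

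Within genes the peaks lay in company. Of the members, 53.9% (53.1 to 54.8) had another in the same gene within 10 kb, 36.1% within 5 kb and 13.0% within 1 kb, and 2158 were alone. Members alone in their gene had a median fold of 6.39. The median was 6.31 in genes with 2 to 4, 6.16 in genes with 5 to 9 and 5.69 in genes with 10 or more, so crowding went with slightly lower folds. The other measures did not fall. In the same order, from members alone, the median −log10 q was 6.71, 7.44, 7.81 and 7.34, and the median width 178, 192, 193 and 199 bases. After GSE1 and AHRR, the longest runs with gaps of up to 10 kb were 16 peaks over 60.2 kb in BAHCC1, a chromatin gene, and 12 over 38.6 kb in PREX1. Runs of 11 lay in GNG7, NFIX, PLEC and RASA3.

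Density fell with gene length and differed with the peaks at the gene ends. It was 4.01 peaks per 100 kb (3.69 to 4.35) in genes with up to 10 kb of interior, 3.07 at 10 to 30 kb, 2.01 at 30 to 100 kb, 1.22 at 100 to 300 kb and 0.37 (0.35 to 0.39) above 300 kb. Over all lengths, genes with a PML/RARA peak but no PPARα peak at an end had 2.37 interior peaks per 100 kb (2.31 to 2.44). Genes with both at an end had 1.38 (1.34 to 1.43), and genes without a PML/RARA peak at an end had 0.689 (0.667 to 0.712). The order held in each of the 5 length bins. In the shortest bin the densities were 5.83, 4.13 and 2.43, and in the longest 0.908, 0.496 and 0.240, and in each bin the interval of the first lay above that of the second. PPARα overlap of the interior peaks themselves was part of the rule, so a gene with much PPARα could have fewer members for that reason, and this was not tested. Of genes with a member, 69.9% (68.6 to 71.2) carried PML/RARA at an end, against 58.0% (57.0 to 59.1) of genes without and 62.2% of all genes with interior. PPARα end peaks were found in 34.8% (33.5 to 36.2) and 36.6% (35.6 to 37.6), intervals that overlapped, with 36% over all. Their direction differed by length: at 30 to 100 kb of interior they were in 36.2% (34.0 to 38.5) of genes with a member and 41.7% (39.7 to 43.7) without, and above 300 kb in 25.1% (20.6 to 30.01) and 15.3% (11.7 to 19.5). There were 1437 genes with a member and no end peak of either antibody.

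**Figure D4:**
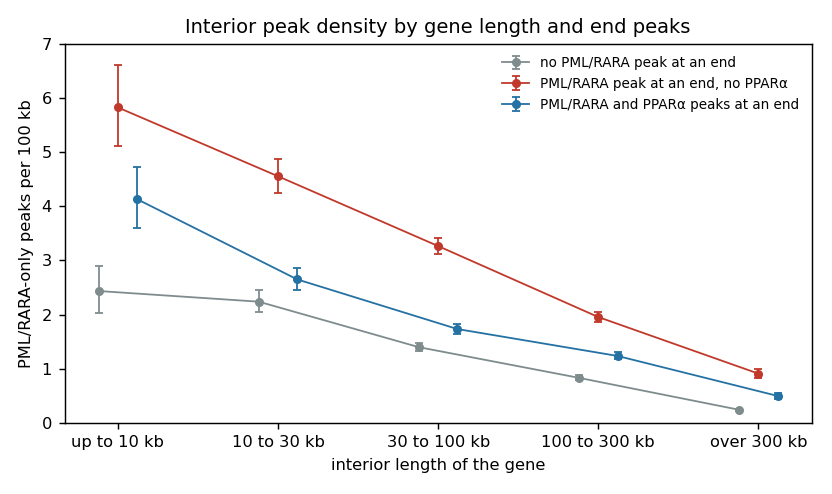
PML/RARA-only interior peaks per 100 kb (linear y axis) in genes binned by interior length (x axis), by the peaks at the gene ends, with exact Poisson 95% intervals. In each bin genes with PML/RARA alone at an end lie highest and genes without PML/RARA at an end lowest, from 5.83 and 2.43 in the shortest genes to 0.908 and 0.240 in the longest.

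Along the gene the density was nearly symmetrical. In genes of known strand it was 1.05, 1.28, 1.30, 1.28 and 1.06 per 100 kb in 5 equal stretches from the 5′ to the 3′ end of the gene. Interior peaks shared with PPARα leaned towards the 5′ side, at 0.177, 0.197, 0.172, 0.143 and 0.129 per 100 kb. The first and last stretches had, for PML/RARA-only peaks, overlapping intervals (0.999 to 1.104 and 1.01 to 1.11), and those of shared peaks did not (0.156 to 0.200 and 0.111 to 0.148). These intervals take each peak as independent, although peaks lay close together within genes, and the difference was not tested.

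Across the genome, chromosome 19, the most gene-dense, had 5.58 PML/RARA-only interior peaks per 100 kb of interior (5.25 to 5.92). Chromosomes 17, 16 and 22 followed with 2.81, 2.50 and 2.45, and chromosome 18 was lowest with 0.432 (0.357 to 0.518). Within 5 Mb of the outermost annotated gene of a chromosome the density was 3.85, and 24.0% of all members lay there. It was 1.84 at 5 to 10 Mb, 1.502 at 10 to 20 Mb and 0.812 (0.792 to 0.833) beyond. The median fold went the opposite way, from 5.41 in the outermost 5 Mb to 6.43 beyond 20 Mb. The share of interior PML/RARA peaks that touched PPARα rose from 8.54% to 13.8% over the same zones. Interior peaks shared with PPARα were also densest in the outermost 5 Mb, at 0.359 per 100 kb (0.319 to 0.403) against 0.130 (0.122 to 0.139) beyond 20 Mb.

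Gene lists for this cell type were read against the 35.4% of coding genes with a member and against the density of genes of like interior length. That 35.4% is not matched for length: the share was 15.1% with up to 10 kb of interior, 52.2% at 100 to 300 kb and 49.7% above. A list's share of genes with a member is therefore to be read beside its ratio to like-length genes. The lists were chosen with earlier results of these data known, and they are described without a test. Of 30 granulocyte and monocyte genes with interior sequence, 16 held a member (53.3%, interval 34.3 to 71.7), and the density was 6.35 per 100 kb, 2.60 times that of like-length genes. The leukocyte integrin ITGAL held 6, its partner ITGB2 held 4, and CSF1R, the macrophage growth factor receptor, held 4. Many granule genes are too short to have an interior. Among 10 promyelocyte markers 8 had a PML/RARA peak of some kind in the gene or within 1 kb of it, including MPO with 3, and ELANE and CTSG had none. Of all coding genes 70.5% had one by the same measure, so the markers' count is close to the background.

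Among blood transcription factors, 39 of 47 held a member, at 2.95 per 100 kb and 2.52 times like-length genes. CBFA2T3, a corepressor of the ETO family, held 16 and NFIX 12. RUNX1, the master regulator of definitive blood formation, held 9 with 6 further peaks shared with PPARα, ELF1 held 9, and STAT5B and FOXO3 held 8 each. Cytokine receptors and kinases had 40 of 51 genes with a member, at 2.59 per 100 kb and 2.59 times like length. PIK3CD, the leukocyte PI3-kinase, held 14, PTK2B 13, PRKCB 10 and IL6R 7. FLT3, the receptor kinase often mutated in this leukemia, held 5 with a best fold of 10.5.

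Retinoic acid response genes had 17 of 28 with a member, at 1.49 per 100 kb (1.07 to 2.03) and 1.54 times like-length genes. RARA itself held 5 PML/RARA-only peaks with folds of 4.39, 5.65, 5.33, 4.49 and 3.96 in order from its 5′ end. The pair of stronger peaks between the first and second of these, with folds of 8.27 and 16.5, were shared with PPARα. RARG, a paralogous receptor, held 2, the stronger with fold 21.8 and −log10 q 329. CD38 and TGM2, retinoic acid targets of myeloid cells, held 3 each, NAV1 held 8 and SKAP2 1. PML held 1 peak of fold 4.09. Nuclear receptors and cofactors had 27 of 49, at 1.32 per 100 kb and 1.74 times like-length genes, and in the shortened list their density turned to 0.966 times that of all interiors. RXRA, the partner receptor, held 9, PPARG 9, PPARD 7, PPARA 2 and NR4A1 6. The corepressor gene NCOR1, with 166 kb of interior, held none. HDAC4, a deacetylase, held 18.

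Among chromatin regulators 40 of 62 held a member, at 2.05 per 100 kb and 1.54 times like-length genes. KDM4B held 17, KDM2B 11, and SMARCA4 and JARID2 9 each. DNMT3A, a DNA methyltransferase mutated in leukemia, held 9, whereas TET2, with 114 kb of interior, held none. The series' title concerns triglycerides, and of the fatty acid and triglyceride genes 31 of 64 held a member, at 2.86 per 100 kb and 1.64 times like-length genes. MLXIPL, the carbohydrate-response factor of lipid synthesis, held 10 in 44.7 kb with a best fold of 26.1, AGPAT3, an acyltransferase, held 9, ACOX3 7, and CPT1A, the entry enzyme of mitochondrial fatty acid oxidation, 6.

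Lists of other tissues did not all lie low. Genes of liver, muscle and epithelium had 21 of 40 with a member, at 1.62 per 100 kb and 1.42 times like length, with 20 in CACNA1C, a calcium channel, and 13 in COL4A2, a basement membrane collagen. Lymphoid genes had 14 of 40 (35%, 20.6 to 51.7), at 0.859 per 100 kb and 0.844 times like length. Long neuronal genes had 19 of 54, at 0.0747 per 100 kb (0.0550 to 0.0990), which was 0.199 times like length. For genes above 300 kb, like length meant 1 open-ended group of 690 genes, at 0.371 per 100 kb. The median interior of the long neuronal genes was 1111 kb, so they were not matched within that group, and the part of length there was not tested. RBFOX3 held 16 of the 48 peaks of that list, the most of any gene in it. PTPRN2, with 66 PML/RARA-only peaks in 1039 kb of interior, and SORCS2, with 26 in 526 kb, were not in that list. Its low density therefore holds for the long genes chosen and not for long genes at large. Over all lists, 8 of 10 lay above the density of all interiors, and the same number lay above that of like-length genes.

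**Figure D5:**
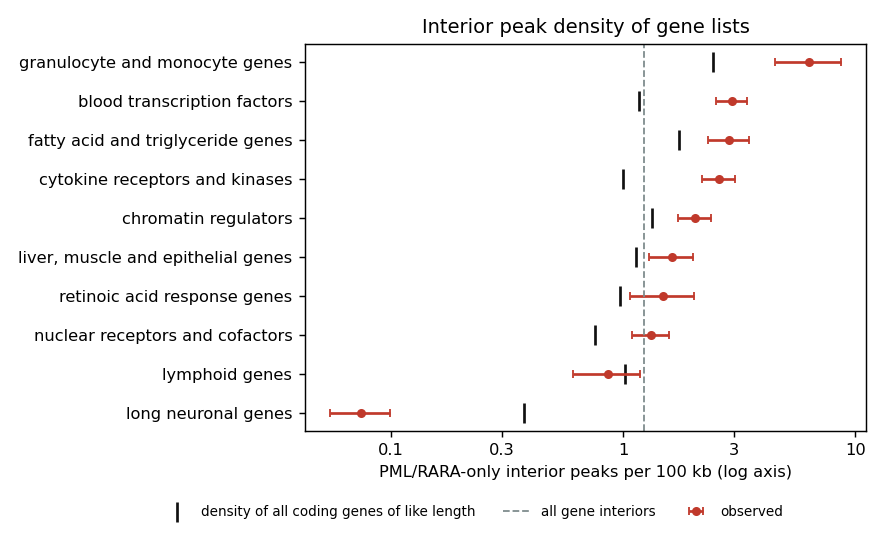
PML/RARA-only interior peaks per 100 kb (log x axis) for 10 gene lists, as red points with exact Poisson 95% intervals, beside the density of all coding genes of like interior length (black bars) and of all interiors (dashed line). Granulocyte and monocyte genes lie highest at 6.35, lymphoid genes lie at their bar, and long neuronal genes lie lowest at 0.0747.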

How the data were processed

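CUT&Tag of NB4 cells gave 1 deposited peak list per antibody on hg38. The tools, per the submitters' processing notes, were bedtools, Bowtie2 2.2.9, MACS 1.4.2 and SAMtools, with roles and settings not given in the sources used here. Their narrowPeak layout came in with MACS versions after the one named, which leaves it unsettled how fold and q were computed. The layout gives for each peak a fold, which is the authors' ratio over background, p-values and q-values as the authors' −log10, and a deposited display score. No source used here says whether IgG served as control. No column was of unknown sample (0). Genes and start windows came from RefSeq tables of GRCh38.p14. The window table gave strand, which 2644 coding genes with interior lacked. A peak inside several coding genes was counted for each.

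Shares carry 95% Clopper-Pearson and densities 95% exact Poisson intervals, computed with Python 3.11.15, NumPy 2.4.6, pandas 2.3.3 and SciPy 1.17.1. With 1 list per antibody no comparison was tested. Classification was tested on 20 simulated layouts, where 8000 of 8000 peaks were placed as by brute force. Named genes are the 10 with most members, the 10 densest with at least 5, those of the 10 peaks with the highest −log10 q, the 5 longest without a member, up to 6 per list, and 13 genes of interest, of which a part is described and some are not reported here, with 1 gene list; other genes named for a run of peaks, a start window or a microRNA were chosen after their values were seen. The members and lists were chosen with earlier results of these data known. The planned repeat searches had GGTCA gaps of 5, 1 and 2 bases, which space hexamers by 4, 0 and 1, and gaps of 6 and 3 were added after the data were seen. Alternatives were stricter lists, a shortened list, other distances and a wider gap to PPARα.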

Additional observations from a re-analysis of the deposited data

How the results depend on the processing

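The main values were 12797 peaks, 28.4% of the list, 1.23 per 100 kb, 53.9% with a neighbour within 10 kb, and 69.9% of member genes with an end peak. With a −log10 q of at least 5 they were 8455, 24.6%, 0.813, 44.6% and 66.9%. With a fold of at least 5 they were 8253, 25.1%, 0.794, 40.2% and 66.2%. With the PML/RARA list shortened to 9573 peaks, the PPARα number, they were 1084, 11.3%, 0.104, 18.2% and 44.5%, in 820 genes with a median fold of 16.7. In that list 7 of 10 gene lists, not 8, lay above all interiors, and the ratio turned below 1 for nuclear receptors and cofactors (0.966). The share, the density and the neighbour share were 34.0%, 1.35 and 54.9% at more than 2 kb from ends and 21.8%, 1.07 and 52.9% at more than 10 kb, where 68.2% of member genes had an end peak. They were 23.8%, 1.16 and 51.3% with the ends of every annotated gene. Without PPARα within 1 kb the share and density were 27.8% and 1.20. Peak midpoints in place of summits gave 12798 peaks in 4850 genes, with 54.0% and 69.6%. The setting against genes of like length was chosen after seeing the data and left 8 lists above. The cause of these moves was not tested, apart from the shorter lists holding fewer peaks. No paired analysis was possible because each antibody had 1 list and no replicate. Depth is unknown, so the absence of a call in a gene is not the absence of binding.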

Other observations

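Other annotated genes lay under a small part of the PML/RARA-only interior peaks. Of the 12797 summits, 993 (7.76%, 7.30 to 8.24) fell inside another annotated gene, 924 of them inside a long noncoding RNA gene and 54 inside a pseudogene. The share of interior sequence inside such genes was not computed. A PPARα peak lay within 10 kb of 16.1% of members and within 50 kb of 58.7%. The rule left out peaks that touched PPARα, which shaped these distances, and no background share was computed. Of the 4830 genes with a member, 930 (19.3%, 18.2 to 20.4) also held an interior peak shared with PPARα. The same share was not computed for genes without a member, whose median interior was 22.3 kb, against 50.2 kb with one. The 19.3% is therefore a description without a background. The PPARα share of interior peaks rose with gene length, from 8.95% (6.85 to 11.4) in genes with up to 10 kb of interior to 13.3% (11.7 to 14.99) above 300 kb.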
